A study of Homo sapiens with 15 samples.

Results

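A549 cells, an established human lung adenocarcinoma line, were made hypoxic in the presence of the compound BB2-162 and compared with A549 cells kept in normoxia with vehicle. The comparison used the 3 arrays labelled hypoxic with BB2-162 and the 3 labelled normoxic with vehicle, chosen by those labels alone, 6 of the 15 arrays of the study. The study also holds hypoxic cells given vehicle, BB2-282 or BB2-125, with 3 arrays in each group, and its design text calls the compounds transcriptional inhibitors. BB2-162 was given at 10 µM in medium with 0.1% DMSO, and the normoxic and hypoxic vehicle cells received 0.1% DMSO. After 6 h of pretreatment the hypoxic cells were sealed in a GasPak EZ pouch for 42 h. The oxygen level reached is not given in the sources used here. All groups are of 1 cell line. No array of BB2-162 in normoxia was analysed here, so an action on the hypoxic response and an action on transcription in general cannot be told apart. The replicates are labelled biological, and nothing in the labels says which plating or day each came from, so the tests measure the spread between these samples.

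In normoxia, prolyl hydroxylases mark the alpha subunits of hypoxia-inducible factor (HIF) for destruction through the VHL ubiquitin ligase. In hypoxia the alpha subunits persist, pair with ARNT, bind the hypoxia response element and recruit the coactivators p300 and CBP, which raises genes of glucose uptake, glycolysis, vessel growth, matrix remodelling and survival. Long hypoxia also slows growth and lowers the synthesis of DNA, lipids and many proteins. The question the comparison addresses is which of these changes were still present with BB2-162, which were not, and which genes lay beyond the normoxic level.

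Every value below is the log2 of the deposited linear intensity of a probe set, so that a difference of 1 is a 2-fold change, and a difference is followed by its standard error from limma. A gene was called when its Benjamini-Hochberg adjusted p in limma was below 0.05 over the 16005 genes tested. The median intensity ran from 74.91 to 84.6 over the 6 arrays, and no 2 of the 15 arrays held identical values. The arrays of BB2-162 varied more among themselves than those of any other group: BB2-162 replicate 1 deviated from its group mean by 0.23 (root mean square over all probe sets), against 0.11 to 0.18 for the other 14 arrays. Because the cells were measured in bulk, fewer cells of a kind and less RNA per cell cannot be told apart.

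With BB2-162 in hypoxia, most of the measured transcriptome still differed from normoxia. A total of 12296 of the 16005 genes were called, 76.8%, with 6785 higher (42.4%) and 5511 lower (34.4%). Past 2-fold the direction tilted downward, with 802 genes higher (5.01%) and 2635 lower (16.5%). The 3 BB2-162 arrays did not overlap the 3 normoxic arrays for 12036 genes (75.2%). The vehicle comparison, which shares the normoxic arrays, called 4508 genes higher (28.2%) and 4699 lower (29.4%) in hypoxia. Without BB2-162 replicate 1 the calls were 6950 up and 5712 down, with 829 up and 2881 down past 2-fold. The median change over all genes was 0.14 with BB2-162 and 0.09 with vehicle.

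Small changes depended on the signal of the gene. In the dimmest of 4 equal groups of genes the median change with BB2-162 was 0.28, with 2050 called higher and 807 lower, whereas in the brightest group it was -0.08, with 1411 higher and 1681 lower. After cyclic loess normalization, which removes shifts that depend on signal, the medians of these groups were -0.02 and -0.09, and the calls over all genes became 4042 higher and 6255 lower. Past 2-fold the calls became 726 higher and 3004 lower.

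**Figure D1:**
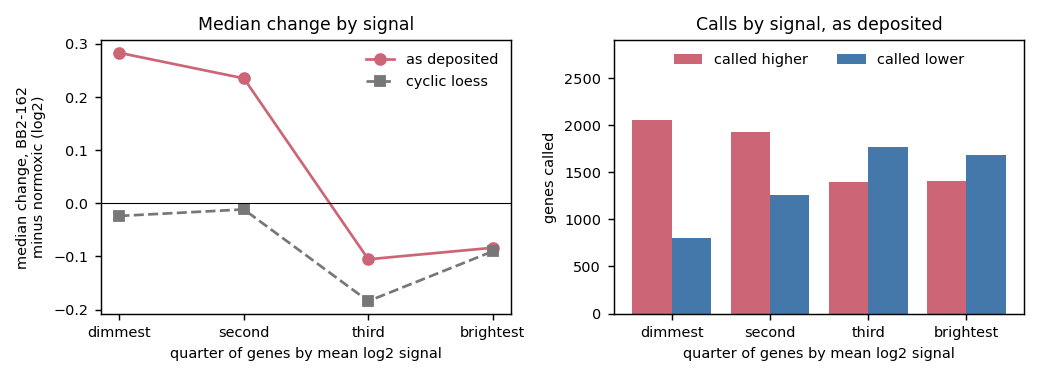
Left, the median log2 change of BB2-162 against normoxia in 4 equal groups of the tested genes ordered by mean log2 signal, for the values as deposited and after cyclic loess normalization. Right, bars of the number of genes called higher and lower in each group, with 2050 higher and 807 lower in the dimmest group and 1411 higher and 1681 lower in the brightest.

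Genes that hypoxia raised mostly stayed above normoxia with the compound. Each gene called for hypoxia was placed by its change with BB2-162: on the same side as the hypoxic change if called there, beyond normoxia if called on the opposite side, at the normoxic level if not called and with a 95% interval within 1.5-fold of normoxia either way, and undetermined otherwise. Of the 4508 genes higher in hypoxia, 3685 (81.7%) stayed higher, 591 (13.1%) were at the normoxic level, 162 (3.59%) were below normoxia and 70 were undetermined. Of the 4699 genes lower in hypoxia, 4247 (90.4%) stayed lower, 372 (7.92%) were at the normoxic level, 50 (1.06%) were above normoxia and 30 were undetermined. These counts set side by side 2 comparisons that share the normoxic arrays. Without BB2-162 replicate 1, the count of genes raised by hypoxia and below normoxia with BB2-162 was 259 in place of 162.

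Large hypoxic changes were kept more often than not. Among the 835 genes that hypoxia raised at least 2-fold, 766 stayed above normoxia, 44 were at the normoxic level, 6 were below it and 19 were undetermined. Among the 1897 genes that hypoxia lowered at least 2-fold, 1886 stayed below normoxia and 4 were at its level. Staying on one side of normoxia did not mean standing at the hypoxic vehicle level. Of the 3685 genes that stayed higher, 398 were called closer to normoxia than hypoxic vehicle was and 707 were called further from it, and of the 4247 that stayed lower, 318 were closer and 1323 further. For reference, BB2-162 against hypoxic vehicle called 2511 of all genes higher (15.7%) and 3269 lower (20.4%).

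**Figure D2:**
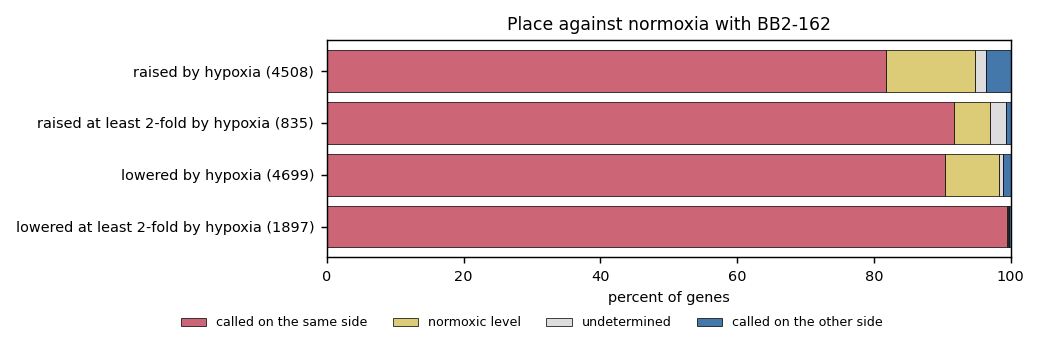
Stacked bars of the percent of genes in each place with BB2-162, for genes raised or lowered by hypoxia (adjusted p below 0.05) and for those changed at least 2-fold. The part called on the same side as hypoxia is 81.7% of the raised and 90.4% of the lowered genes, and the normoxic level holds 13.1% and 7.92%.

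The classical HIF targets stayed high as a group. Of the 42 measured HIF targets of signalling and survival, 33 were called higher than normoxia with BB2-162 and 6 lower, with a median change of 1.27 against 0.14 over all genes. The shares over all genes were 42.4% higher and 34.4% lower. Against hypoxic vehicle 10 of the 42 were called higher and 12 lower, where 15.7% of all genes were higher and 20.4% lower. In hypoxic vehicle the same list had 33 higher and 3 lower, with a median of 1.46. VEGFA, the main growth factor of blood vessels, read 7.80, 7.84 and 7.63 on the normoxic arrays, 11.28, 11.54 and 11.43 on the hypoxic vehicle arrays and 11.52, 11.12 and 11.43 on the BB2-162 arrays. Its BB2-162 arrays lay well above all normoxic arrays and overlapped the hypoxic vehicle arrays, with 1 of the 3 below them. The gene rose by 3.60 ± 0.11 over normoxia with BB2-162 (adjusted p = 9.97e-15), and its difference from hypoxic vehicle was -0.06 (95% interval -0.29 to 0.18). ADM, which encodes the vasodilator peptide adrenomedullin, read 8.78, 8.70 and 8.83 in normoxia, 12.42, 12.43 and 12.34 in hypoxic vehicle and 13.18, 12.86 and 12.96 with BB2-162. Here all 3 BB2-162 arrays were above all hypoxic vehicle arrays. ADM rose by 4.23 ± 0.10 over normoxia (adjusted p = 6.63e-16) and stood 0.60 ± 0.10 above hypoxic vehicle (adjusted p = 0.000203).

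Other members of the list with large rises were HILPDA, PLIN2, NDRG1, DDIT4 and CXCR4. HILPDA, an inhibitor of the lipase that empties lipid droplets, rose by 4.13 ± 0.11 and PLIN2, a droplet coat protein, by 3.86 ± 0.09. NDRG1, a stress-responsive growth regulator, rose by 4.0 ± 0.09, from 8.99, 9.01 and 8.86 on the normoxic arrays to 13.08, 12.85 and 12.93 on the BB2-162 arrays. DDIT4, a brake on the growth kinase mTOR, rose by 3.29 ± 0.08, with normoxic arrays at 9.13, 9.28 and 9.12 and BB2-162 arrays at 12.51, 12.44 and 12.46. For all 4 of these genes the BB2-162 arrays lay above every normoxic array. Such separation was a condition for the genes named as the largest rises, and 75.2% of all genes had no overlap in either direction. CXCR4, the receptor of the chemokine CXCL12, read 5.92, 5.55 and 5.94 in normoxia, 8.91, 8.76 and 9.05 in hypoxic vehicle and 9.06, 8.91 and 9.16 with BB2-162. It rose by 3.24 ± 0.13 over normoxia (adjusted p = 4.23e-13), and the BB2-162 arrays overlapped those of hypoxic vehicle.

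A minority of the list was no longer high. EGLN3, the prolyl hydroxylase that HIF itself induces, read 8.16, 8.23 and 8.22 in normoxia, 10.43, 10.71 and 10.24 in hypoxic vehicle and 8.12, 7.90 and 8.18 with BB2-162. The BB2-162 arrays overlapped the normoxic ones and lay far below hypoxic vehicle. Hypoxia raised EGLN3 by 2.25 ± 0.12, and with BB2-162 the difference from normoxia was -0.14 ± 0.12 (95% interval -0.39 to 0.12, adjusted p = 0.309). TGFA, a ligand of the EGF receptor, was the other list member at the normoxic level, with a change of -0.25 against 1.16 in hypoxic vehicle. TMEM45A was called below normoxia (-0.30, with overlapping arrays) although hypoxia had raised it (0.96). HMOX1, which breaks down haem and is also an NRF2 target, fell by 1.80 and had fallen in hypoxic vehicle too (-1.26).

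**Figure D3:**
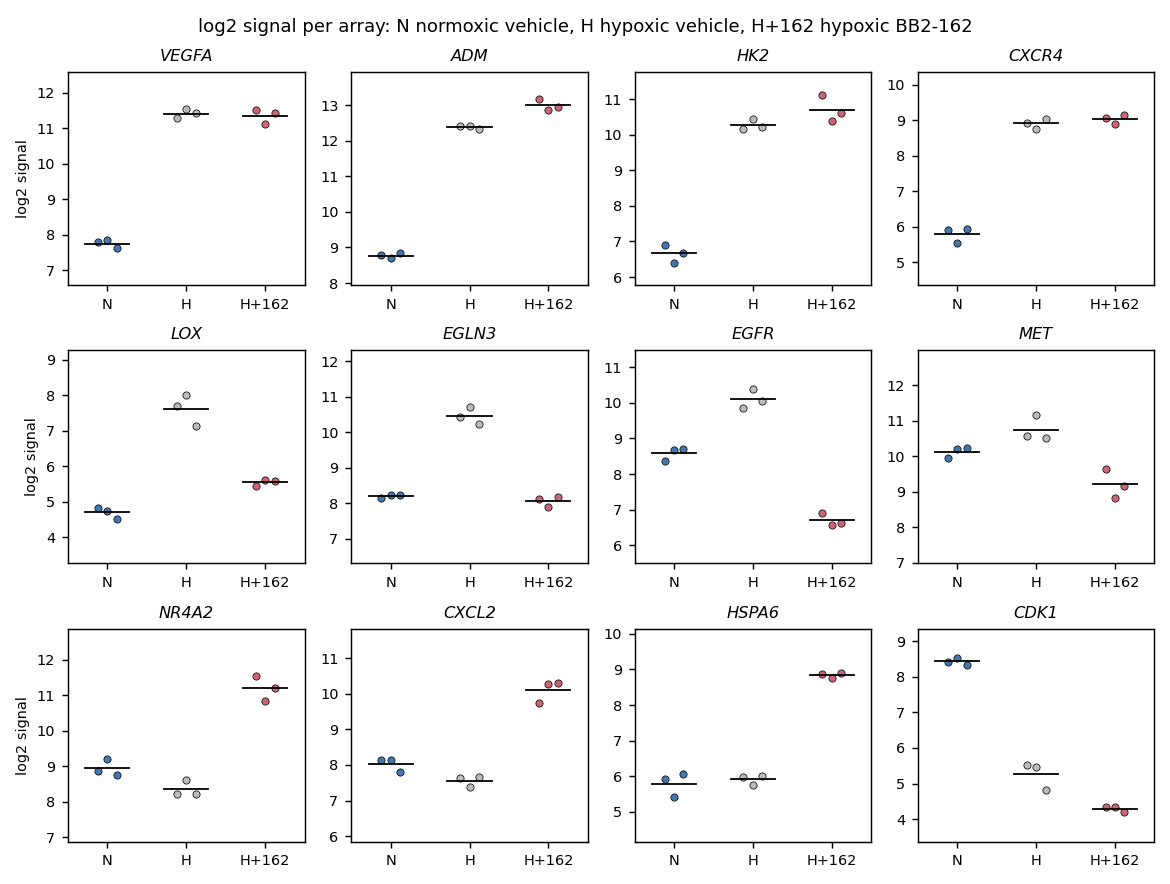
log2 signal of 12 genes on the 3 normoxic vehicle (N), 3 hypoxic vehicle (H) and 3 hypoxic BB2-162 (H+162) arrays, 1 point per array, with the group mean as a line and each vertical axis spanning the same number of log2 units. VEGFA, ADM, HK2 and CXCR4 stay high, LOX and EGLN3 come down to or near normoxia, EGFR and MET lie below it, and NR4A2, CXCL2 and HSPA6 lie above both vehicle groups and CDK1 below both.

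The upstream sequence of 4 of these genes is shown because they span the range of outcomes, from a rise above hypoxic vehicle (ALDOC, ADM) through a partial rise (LOX) to the normoxic level (EGLN3). Capitals mark the core of the hypoxia response element, searched as ACGTG or GCGTG on both strands, where a CACGTG counts on each strand. Sequences are RefSeq's, build GRCh38.p14, written 5′ to 3′ on the strand of the gene.
ALDOC (chr17:28576896-28576975, minus strand): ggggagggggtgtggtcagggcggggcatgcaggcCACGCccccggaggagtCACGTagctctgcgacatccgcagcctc
ADM (chr11:10304934-10305013, plus strand): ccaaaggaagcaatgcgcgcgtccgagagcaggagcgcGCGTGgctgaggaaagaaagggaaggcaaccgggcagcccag
LOX (chr5:122078260-122078339, minus strand): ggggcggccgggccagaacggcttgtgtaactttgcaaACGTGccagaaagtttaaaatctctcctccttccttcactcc
EGLN3 (chr14:33951075-33951154, minus strand): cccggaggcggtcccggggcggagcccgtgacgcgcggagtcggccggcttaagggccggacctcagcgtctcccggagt
ALDOC, LOX and EGLN3 are shown for the 80 bases just before the annotated start, and ADM for bases 139 to 60 before it. In the whole window of 250 bases before to 50 after the start, ALDOC held 5 matches, ADM 1, the window of LOX shown here 4 and EGLN3 0. The core is short and frequent: 48.4% of all 35116 windows and 57.2% of the windows of tested genes held it. It was in 63.5% of the windows of genes raised by hypoxia and still at least 2-fold above normoxia, in 60.3% of those raised and back at the normoxic level, and in 83.3% of the windows of the HIF targets. A match is a description of the letters and not a binding site.

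Among the genes of glycolysis and glucose uptake some stayed high and others were at or below the normoxic level. Of the 24 measured genes, 13 were higher, 6 lower and 5 not called, with a median of 0.33, where 42.4% of all genes were higher and 34.4% lower. HK2, the hexokinase that traps glucose in the cell, read 6.90, 6.41 and 6.68 in normoxia, 10.17, 10.44 and 10.22 in hypoxic vehicle and 11.13, 10.39 and 10.61 with BB2-162. It rose by 4.05 ± 0.17 (adjusted p = 5.12e-13), and the BB2-162 arrays overlapped only those of hypoxic vehicle. ALDOC, an aldolase, read 7.07, 6.92 and 7.07 in normoxia and 11.71, 11.17 and 11.10 with BB2-162 and rose by 4.31 ± 0.14. The glucose transporters SLC2A3 and SLC2A1 rose by 3.49 ± 0.10 and 1.92 ± 0.11, and the difference of each from hypoxic vehicle was 0.01 (95% interval -0.19 to 0.21) and -0.21 (-0.44 to 0.01).

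Some members of the list had lost most of their rise. PYGL, liver glycogen phosphorylase, read 8.72, 8.84 and 8.76 in normoxia, 11.17, 11.47 and 11.13 in hypoxic vehicle and 9.51, 9.09 and 9.23 with BB2-162, a change of 0.50 against 2.48 in vehicle. PFKP, the platelet phosphofructokinase, changed by 0.40 against 2.03, and GBE1, the glycogen branching enzyme, by 0.63 against 1.88. All 3 were called above normoxia and below hypoxic vehicle, though for PFKP the BB2-162 arrays overlapped the normoxic ones. PGK1 and GPI were at the normoxic level, with changes of -0.08 and 0.07. ENO1, GYS1, PFKL and PFKM fell, with changes of -0.92, -1.05, -0.61 and -1.10.

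Of 21 measured genes of collagen modification and matrix, 9 were higher than normoxia and 6 lower, with a median of 0.22. These shares are near those over all genes, 42.4% higher and 34.4% lower. Against hypoxic vehicle 10 of the 21 were called lower and 3 higher, where 20.4% of all genes were lower and 15.7% higher. LOX, which cross-links collagen, read 4.82, 4.75 and 4.53 in normoxia, 7.68, 7.99 and 7.14 in hypoxic vehicle and 5.44, 5.60 and 5.59 with BB2-162. Its BB2-162 arrays lay above every normoxic and below every hypoxic vehicle array. LOX changed by 0.85 ± 0.16 over normoxia with BB2-162 (adjusted p = 0.000104), against 2.91 ± 0.16 in hypoxic vehicle, and stood -2.06 ± 0.16 from hypoxic vehicle (adjusted p = 2.64e-08). LOXL2, a related oxidase, read 8.02, 8.03 and 8.23 in normoxia and 10.75, 10.30 and 10.49 with BB2-162, and stayed 2.42 ± 0.11 above normoxia after a hypoxic rise of 3.64. The collagen prolyl hydroxylases P4HA1 and P4HA2 stayed 1.71 and 1.61 above normoxia. PLOD2, a collagen lysyl hydroxylase, was at the normoxic level with a change of -0.08 after a hypoxic rise of 1.30, whereas PLOD1 and PLOD3 fell, with changes of -1.27 and -1.08.

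The genes of the HIF machinery did not move as a block. Of the 14 measured subunits, hydroxylases and coactivators, 5 were higher and 6 lower, with a median of -0.07, near the shares over all genes (42.4% higher and 34.4% lower). HIF1A read 11.59, 11.80 and 11.83 in normoxia, 9.58, 9.92 and 9.40 in hypoxic vehicle and 11.33, 10.71 and 10.70 with BB2-162. Its BB2-162 arrays lay between the other groups without overlap: HIF1A mRNA changed by -0.83 ± 0.15 from normoxia (adjusted p = 0.000112) after a hypoxic change of -2.11. EPAS1, which encodes HIF-2 alpha, stayed 0.71 ± 0.12 above normoxia, and ARNT was at the normoxic level with 0.12 ± 0.11 (95% interval -0.10 to 0.35).

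CREBBP and EP300, the coactivator genes, were called below normoxia. CREBBP, which encodes CBP, read 9.07, 9.55 and 9.46 in normoxia, 9.40, 9.79 and 9.65 in hypoxic vehicle and 8.85, 8.08 and 8.64 with BB2-162. The BB2-162 arrays were below all others, and CREBBP fell from normoxia (change -0.83 ± 0.17, adjusted p = 0.000253) although hypoxia alone gave 0.25 ± 0.17 (adjusted p = 0.2). EP300 read 8.14, 8.77 and 8.67 in normoxia and 8.24, 7.53 and 7.98 with BB2-162, and 1 array of BB2-162 overlapped the normoxic range. Its change was -0.61 ± 0.19 (adjusted p = 0.00719), and the call was lost without BB2-162 replicate 2 (change -0.41, adjusted p = 0.0567). CITED2, which competes with HIF for the same domain of p300 and CBP and is a HIF target itself, rose by 2.59 ± 0.11, from 8.60, 8.43 and 8.57 to 11.30, 10.98 and 11.10. HIF1AN, the asparaginyl hydroxylase that blocks coactivator binding, fell (change -1.27 ± 0.13).

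Among genes raised by hypoxia and at the normoxic level with BB2-162, the largest hypoxic rises after EGLN3 were those of PRSS3P2 (2.37), TMEM45B (2.01), PIP (1.75), NPC1 (1.75) and PDXDC2P-NPIPB14P (1.58). PRSS3P2 is a trypsinogen-like pseudogene whose probes may also read its relatives. NPC1, which exports cholesterol from lysosomes, read 8.37, 8.58 and 8.61 in normoxia, 10.13, 10.47 and 10.23 in hypoxic vehicle and 9.03, 8.24 and 8.5 with BB2-162, a difference from normoxia of 0.07 ± 0.15 (95% interval -0.26 to 0.39). Its BB2-162 arrays covered the whole normoxic range and more. PDXDC2P-NPIPB14P was called higher without BB2-162 replicate 2 (0.44, adjusted p = 0.0108).

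Among genes lowered by hypoxia and at the normoxic level with BB2-162, the largest hypoxic falls were in PARM1 (-1.47), CYCS (-1.04), PSMC4 (-1.04), ZNF670 (-1.01), CENPV (-0.99) and CXADR (-0.97). CYCS, cytochrome c of the respiratory chain, read 9.33, 9.59 and 9.31 in normoxia, 8.48, 8.35 and 8.29 in hypoxic vehicle and 9.60, 9.45 and 9.33 with BB2-162. PSMC4, an ATPase of the proteasome, read 11.42, 11.34 and 11.42 in normoxia, 10.41, 10.30 and 10.35 in hypoxic vehicle and 11.69, 11.17 and 11.21 with BB2-162. In both genes the BB2-162 arrays overlapped normoxia and were above all hypoxic vehicle arrays. The place of 5 of the 6 depended on a setting: under median centring ZNF670, CENPV and CXADR were called lower (-0.31, -0.33 and -0.38), PARM1 was called lower after cyclic loess (-0.43) and CYCS higher after quantile normalization (0.26). Without BB2-162 replicate 1 CENPV and CXADR were called lower as well (-0.32 and -0.46), and CENPV also without normoxic replicate 3 and ZNF670 without normoxic replicate 2. ZNF670 was also at or below the dim level of the BB2-162 arrays.

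EGFR was the gene that crossed normoxia furthest downward. EGFR, the EGF receptor, read 8.36, 8.68 and 8.71 in normoxia, 9.85, 10.40 and 10.06 in hypoxic vehicle and 6.90, 6.57 and 6.63 with BB2-162, so that the 3 groups did not overlap at all. Hypoxia raised it by 1.52 ± 0.17 (adjusted p = 4.96e-07), and with BB2-162 it fell from normoxia (change -1.88 ± 0.17, adjusted p = 2.18e-08). MET, the receptor of hepatocyte growth factor, read 9.96, 10.19 and 10.23 in normoxia, 10.58, 11.15 and 10.52 in hypoxic vehicle and 9.63, 8.81 and 9.17 with BB2-162, and changed by -0.92 ± 0.19 from normoxia (adjusted p = 0.000329). JOSD1, a deubiquitinase, NTAN1, an asparagine amidase of the N-degron pathway, and IFNAR1, a subunit of the type I interferon receptor, also fell below normoxia, with changes of -1.47 ± 0.12, -1.42 ± 0.11 and -1.20 ± 0.15 after hypoxic rises of 0.45, 0.31 and 0.40. KCTD1 and the myosin MYO9A changed by -1.19 and -1.19.

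In the opposite direction, the 50 genes lowered by hypoxia and above normoxia with BB2-162 (27 without normoxic replicate 2 and 33 without normoxic replicate 3) were headed by NR4A2, CXCL2, EREG, RGS2, SCML1 and CRYAB. NR4A2, an immediate-early nuclear receptor, read 8.88, 9.21 and 8.75 in normoxia, 8.21, 8.61 and 8.23 in hypoxic vehicle and 11.55, 10.83 and 11.20 with BB2-162. All BB2-162 arrays were above all others, and NR4A2 rose by 2.25 ± 0.17 over normoxia (adjusted p = 1.3e-09) against -0.60 in hypoxic vehicle. CXCL2, a neutrophil chemokine, read 8.15, 8.15 and 7.81 in normoxia, 7.63, 7.38 and 7.66 in hypoxic vehicle and 9.75, 10.29 and 10.30 with BB2-162, and rose by 2.08 ± 0.14 (adjusted p = 4.29e-10). EREG, a ligand of the EGF receptor, rose by 1.59 ± 0.20, RGS2, an inhibitor of G protein signalling, by 1.52 ± 0.12, SCML1 by 1.24 ± 0.15 and the small heat shock protein CRYAB by 1.19 ± 0.21. Of these 6, CRYAB had fallen furthest in hypoxic vehicle, with a change of -1.26.

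Receptor kinases and ligands of the EGF receptor moved in both directions. Of the 20 measured, 6 were higher and 10 lower than normoxia, with a median of -0.27, against 42.4% higher and 34.4% lower over all genes. Besides EGFR and MET, the receptors FGFR4, ERBB3, IGF1R and ERBB2 fell, with changes of -3.21, -1.63, -1.60 and -1.34, and each had fallen in hypoxic vehicle. FGFR4 read 10.19, 10.15 and 10.19 in normoxia and 7.04, 7.02 and 6.84 with BB2-162, with no overlap. The ephrin receptor EPHA2, the receptor AXL and the ligands EREG and HBEGF rose, by 1.49, 0.99, 1.59 and 1.06.

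Immediate-early genes, which encode transcription factors and regulators induced within minutes of a stimulus, stood above normoxia nearly throughout. Of 23 measured, 22 were higher and 1, CREM, lower (-0.39), with a median of 1.93 against 0.64 in hypoxic vehicle, and 19 of the 23 were called above hypoxic vehicle. Among all genes 42.4% were above and 34.4% below normoxia, and 15.7% were called above hypoxic vehicle. ZFP36, which destabilises inflammatory mRNAs, read 9.14, 8.77 and 9.01 in normoxia, 10.67, 11.09 and 10.70 in hypoxic vehicle and 12.76, 12.37 and 12.69 with BB2-162. The groups did not overlap, and ZFP36 rose by 3.63 ± 0.14 over normoxia (adjusted p = 1.99e-13). GEM, a small GTPase, read 7.01, 6.96 and 7.0 in normoxia, 7.75, 7.48 and 7.68 in hypoxic vehicle and 10.50, 10.21 and 10.34 with BB2-162, and rose by 3.36 ± 0.11, against 0.64 in hypoxic vehicle. JUN and JUNB rose by 3.49 and 2.98, FOSB by 2.53 and MYC by 1.36.

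**Figure D4:**
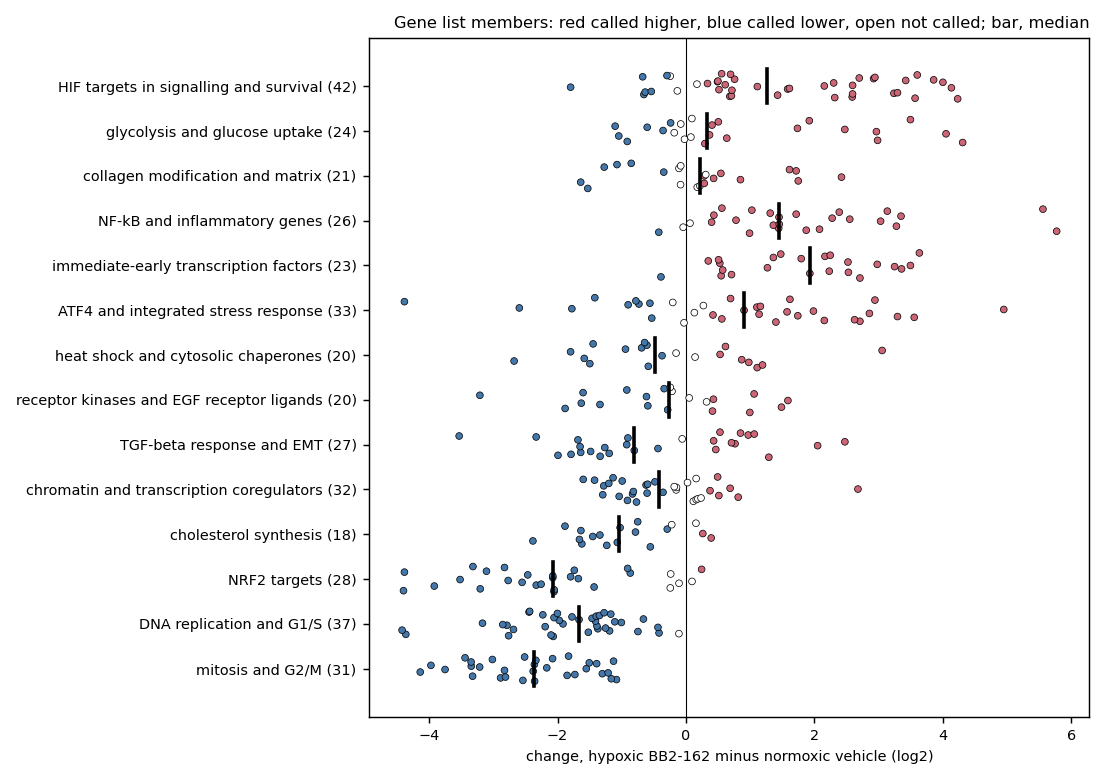
log2 change of BB2-162 against normoxia for the tested members of 14 gene lists, 1 point per gene, with the number of members in brackets, filled where called and open where not, and the median as a bar. Medians run from 1.93 for immediate-early genes and 1.45 for NF-kB genes to -1.67 for DNA replication, -2.08 for NRF2 targets and -2.36 for mitosis.

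Inflammatory targets of NF-kB were almost wholly higher as well. Of 26 measured, 23 were higher and 1, CCL2, lower (-0.43), with a median of 1.45 against 1.10 in hypoxic vehicle. The shares over all genes were 42.4% higher and 34.4% lower. No member was called lower under quantile normalization or without normoxic replicate 1, and 2 were after cyclic loess. CCL20, a chemokine for dendritic and T cells, showed the largest rise among the genes tested: it read 4.47, 4.56 and 4.16 in normoxia, 9.38, 9.17 and 9.34 in hypoxic vehicle and 10.20, 10.28 and 10.02 with BB2-162. Its normoxic level was at or below the dim level of those arrays (their 25th percentile), so the measured change of 5.77 ± 0.11 is given also as at least 5.56 counted from that level. TNFAIP3, the ubiquitin editor A20 that restrains NF-kB, read 5.58, 5.43 and 5.96 in normoxia, 9.71, 9.76 and 9.79 in hypoxic vehicle and 11.55, 10.84 and 11.26 with BB2-162, and rose by 5.56 ± 0.18 (adjusted p = 1.24e-14). For both genes all BB2-162 arrays were above all hypoxic vehicle arrays. NFKBIZ and SOD2 rose by 3.35 and 3.13, and the neutrophil chemokine CXCL8 by 3.28. CXCL1 rose by 1.87 although its hypoxic change was -0.30 and not called.

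The integrated stress response, in which ATF4 raises genes of amino acid supply and stress recovery, had members on both sides of normoxia. Of 33 measured genes 20 were higher and 9 lower, with a median of 0.90, where 42.4% of all genes were higher and 34.4% lower. The list had 20 higher and 8 lower in hypoxic vehicle, with a median of 0.63. PPP1R15A, the phosphatase subunit GADD34 that ends the response, read 7.47, 7.45 and 7.18 in normoxia, 10.81, 10.25 and 11.02 in hypoxic vehicle and 12.28, 12.22 and 12.45 with BB2-162. Its 3 groups did not overlap, and it rose by 4.95 ± 0.14 over normoxia (adjusted p = 5.37e-15). The stress transcription factors DDIT3, ATF3, CEBPB and ATF4 rose by 3.55, 2.71, 2.62 and 2.15. The serine synthesis enzymes PSPH and PSAT1 were instead lower, with changes of -2.60 and -1.78, as was the cystine transporter SLC7A11 (-4.39).

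The promoter of PPP1R15A is shown because it holds the palindromic cyclic AMP response element, TGACGTCA, in capitals, within bases 94 to 15 before its start (RefSeq, GRCh38.p14, chr19:48872327-48872406, plus strand).
PPP1R15A: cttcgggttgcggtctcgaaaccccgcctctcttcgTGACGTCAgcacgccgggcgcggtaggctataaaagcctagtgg
This element was in 1.85% of all windows and 2.52% of those of tested genes, in 5.08% of the windows of genes raised by hypoxia and still at least 2-fold above normoxia, and in 3 of 24 windows of the immediate-early list.

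Heat shock genes divided into a group above normoxia and a larger group below it. Of 20 measured chaperone genes 7 were higher and 11 lower, with a median of -0.48, against 42.4% and 34.4% of all genes. Against hypoxic vehicle 10 were called higher, where 15.7% of all genes were. HSPA6, a strictly inducible HSP70, read 5.91, 5.41 and 6.05 in normoxia, 5.97, 5.74 and 6.01 in hypoxic vehicle and 8.87, 8.77 and 8.89 with BB2-162. The vehicle groups overlapped each other and the BB2-162 arrays were far above both, a rise of 3.05 ± 0.15 over normoxia (adjusted p = 3.97e-12) against 0.12 ± 0.15 in hypoxic vehicle. DNAJB1, an HSP40, and BAG3, an HSP70 partner, rose by 0.98 and 1.11. The abundant chaperone HSP90AA1 read 12.07, 12.20 and 12.09 in normoxia and 10.61, 10.36 and 10.64 with BB2-162 and fell (change -1.59 ± 0.12), though it was 0.83 ± 0.12 above hypoxic vehicle. DNAJB4 and DNAJA1 fell too, with changes of -2.68 and -1.5.

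HSPA6 is shown with its heat shock element in capitals, searched as GAA, any 2 bases, TTC, any 2 bases and GAA on both strands, within bases 108 to 29 before its start (RefSeq, GRCh38.p14, chr1:161524432-161524511, plus strand).
HSPA6: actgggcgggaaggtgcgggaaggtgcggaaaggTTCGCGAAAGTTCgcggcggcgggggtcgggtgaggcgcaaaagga
The element was rare, in 0.49% of all windows, and was in 7 of the 27 windows of the chaperone list.

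The endoplasmic reticulum branch was mostly lower. Of 21 measured genes of endoplasmic reticulum chaperones and the unfolded protein response, 5 were higher and 12 lower, with a median of -0.49. Over all genes 42.4% were higher and 34.4% lower. Hypoxic vehicle had 5 of the list higher and 9 lower, with a median of -0.28. The disulfide isomerase PDIA4 read 10.64, 10.75 and 10.77 in normoxia and 8.83, 8.62 and 8.62 with BB2-162 and fell (change -2.03 ± 0.09, adjusted p = 1.62e-12). PDIA6 and the calcium-binding chaperone CALR changed by -1.38 and -1.31. DNAJB9, a co-chaperone, rose by 1.56.

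The genes with the 10 largest falls from normoxia had all fallen in hypoxic vehicle too. HPGD, which inactivates prostaglandins, read 10.66, 10.64 and 10.56 in normoxia, 6.40, 6.92 and 5.44 in hypoxic vehicle and 5.56, 5.12 and 5.22 with BB2-162 and fell furthest among the genes tested (change -5.32 ± 0.23, adjusted p = 9.11e-13). The iron exporter SLC40A1 read 9.83, 9.81 and 9.71 in normoxia and 4.82, 4.65 and 4.94 with BB2-162. SLC40A1, ESCO2, IQGAP2, BAAT and CDC6 were at or below the dim level of the BB2-162 arrays, so their measured changes of -4.98, -4.86, -4.63, -4.48 and -4.37 are given also as bounds of -4.94, -3.34, -4.22, -4.46 and -4.26, counted from that level. TM4SF20, a membrane protein, read 12.044, 11.997 and 12.005 in normoxia and 7.25, 7.41 and 6.73 with BB2-162, a change of -4.88 ± 0.22.

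Cell cycle genes were below normoxia almost without exception. Of 37 measured genes of DNA replication 36 were lower and none higher, with a median of -1.67 against -1.42 in hypoxic vehicle. The remaining one was CDT1 (-0.11). All 31 measured genes of mitosis were lower, with a median of -2.36 against -1.88 in hypoxic vehicle, and 21 of them were called below hypoxic vehicle. Among all genes 34.4% were below and 42.4% above normoxia, and 20.4% were called below hypoxic vehicle. GINS1, a subunit of the replicative helicase, read 10.09, 10.09 and 10.04 in normoxia, 6.58, 6.39 and 6.47 in hypoxic vehicle and 5.68, 5.68 and 5.59 with BB2-162. Its 3 groups did not overlap, and it changed by -4.42 ± 0.10 (adjusted p = 3.54e-16). CDK1, the mitotic kinase, read 8.43, 8.53 and 8.34 in normoxia, 5.52, 5.47 and 4.82 in hypoxic vehicle and 4.34, 4.35 and 4.19 with BB2-162, and changed by -4.14 ± 0.15, with a bound of -3.59 counted from the dim level. PLK1 and CCNA2 changed by -3.02 and -3.33, and MCM6 and MCM3, also subunits of the replicative helicase, by -3.17 and -2.79.

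The p53 list, by contrast, was mostly higher. Of 26 measured targets 17 were higher and 5 lower, with a median of 0.72, where 42.4% of all genes were higher and 34.4% lower. With hypoxic vehicle 19 targets were higher and 3 lower, with a median of 0.60. CDKN1A, the cyclin kinase inhibitor p21, read 8.36, 8.06 and 8.12 in normoxia and 10.23, 10.07 and 9.99 with BB2-162 and rose by 1.91 ± 0.11. GADD45B and GDF15 rose by 3.19 and 2.86, and MDM2, the ligase that limits p53, was called lower with overlapping arrays (change -0.47). DDB2, a damage sensor, was below normoxia (-0.52) after a hypoxic rise (0.98).

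Targets of NRF2, the regulator of antioxidant defence that is constitutively active in A549, were strongly lower. Of 28 measured, 23 were lower and 1, TKT, higher (0.24), with a median of -2.08 against -2.06 in hypoxic vehicle. The shares over all genes were 34.4% lower and 42.4% higher. The call of TKT was lost in the fit of the groups alone, under median centring, quantile or cyclic loess normalization and array weights, and without normoxic replicate 1 or BB2-162 replicate 1 or 3. SLC7A11, which imports cystine for glutathione, read 11.09, 11.22 and 11.18 in normoxia, 6.09, 6.23 and 5.84 in hypoxic vehicle and 6.96, 6.95 and 6.42 with BB2-162. The BB2-162 arrays lay far below normoxia and above all hypoxic vehicle arrays, with a change of -4.39 ± 0.14 from normoxia. AKR1C3, a steroid reductase, read 12.45, 12.71 and 12.40 in normoxia, 9.81, 10.03 and 9.44 in hypoxic vehicle and 8.81, 8.79 and 8.19 with BB2-162, and changed by -3.92 ± 0.16, further than in hypoxic vehicle (-1.16 between them, adjusted p = 1.67e-05). The exporter ABCC2 and thioredoxin reductase TXNRD1 changed by -4.40 and -2.83.

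Lipid synthesis was lower too. Of 18 measured cholesterol synthesis genes 14 were lower and 2 higher, with a median of -1.05, and of 17 fatty acid synthesis genes 12 were lower and 2 higher, with a median of -0.90. Over all genes 34.4% were lower and 42.4% higher. Hypoxic vehicle had 14 lower and 0 higher (median -1.01) in the first list and 12 lower and 1 higher (median -1.44) in the other. HMGCS1, which makes HMG-CoA for the mevalonate pathway, read 10.67, 10.86 and 10.73 in normoxia and 8.57, 8.23 and 8.31 with BB2-162 (change -2.39 ± 0.11). ELOVL6, a fatty acid elongase, changed by -2.66 and ACLY, which makes cytosolic acetyl-CoA, by -2.34. Metallothioneins, the zinc-binding proteins of the metal response, went the other way: 9 of 11 genes of the metallothionein and metal response list were higher and 1, the zinc exporter SLC30A1, lower, with a median of 0.96. This list had 9 higher and 1 lower in hypoxic vehicle too, with a median of 1.11. MT1X read 10.07, 9.59 and 9.38 in normoxia and 12.46, 12.49 and 12.54 with BB2-162 and rose by 2.81 ± 0.13. Metallothionein genes are near-identical copies, so the division of signal between them is uncertain.

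Genes of the TGF-beta response and of epithelial to mesenchymal transition were split, with 11 higher and 15 lower of 27 and a median of -0.81 against 0.19 in hypoxic vehicle. Over all genes 42.4% were higher and 34.4% lower. THBS1, thrombospondin, read 10.14, 10.53 and 10.43 in normoxia, 8.71, 8.96 and 8.89 in hypoxic vehicle and 7.10, 6.54 and 6.86 with BB2-162, without overlap. It changed by -3.53 ± 0.14 from normoxia (adjusted p = 1.57e-13). TGFBR2 and CDH1, which encodes E-cadherin, changed by -2.34 and -2.00, whereas the transcription factors SNAI2 and SMAD3 rose by 2.47 and 2.05. TGFBR1 and SMAD6 were below normoxia (-0.91 and -0.92) after hypoxic rises (0.47 and 0.31).

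Coregulators of chromatin and transcription were more often lower, 17 of 32 against 6 higher, with a median of -0.42, where over all genes 34.4% were lower and 42.4% higher. Under quantile normalization 11 of the 32 were higher. NSD1, a histone methyltransferase, read 8.23, 8.49 and 8.68 in normoxia and 6.94, 6.74 and 6.91 with BB2-162 (change -1.60 ± 0.12), and the nuclear receptor coactivator NCOA2 changed by -1.43. KDM6B, a histone demethylase, was the exception in size: it read 7.22, 7.47 and 7.35 in normoxia, 8.67, 8.74 and 9.05 in hypoxic vehicle and 10.05, 9.73 and 10.29 with BB2-162 and rose by 2.68 ± 0.14.

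A further set of genes left normoxia by at least 2-fold with BB2-162 without being called for hypoxia. There were 41 such genes above normoxia, of which 40 were also called against hypoxic vehicle, and 152 below it, of which 151 were. The selection makes such a call likely, because the 2 comparisons used for it differ by the change against hypoxic vehicle. That comparison called 15.7% of all genes higher and 20.4% lower. The higher set was led by a noncoding RNA of the vault particle, VTRNA1-1, which read 4.87, 5.26 and 4.56 in normoxia, 6.08, 5.11 and 5.49 in hypoxic vehicle and 7.40, 9.71 and 8.62 with BB2-162. Its BB2-162 arrays varied widely yet stayed above all others (change 3.68 ± 0.47, adjusted p = 1.7e-06). HSPA6, described above, came next, followed by the small nucleolar RNAs SNORD77, SNORA29 and SNORD75, which guide chemical modification of ribosomal RNA. SNORD75 rose by 2.30 ± 0.16, from 7.47, 7.84 and 7.15 to 9.93, 9.86 and 9.57, and SNORD77 and SNORA29, dim in normoxia, by at least 1.49 and 1.84.

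The lower set was headed by DOCK5, DYNLT1, CP, SOS1 and APPBP2. DOCK5, an exchange factor for RAC, read 9.15, 9.54 and 9.68 in normoxia, 9.57, 9.84 and 9.48 in hypoxic vehicle and 7.42, 6.94 and 7.21 with BB2-162. The vehicle groups overlapped and the BB2-162 arrays lay below both, with a change of -2.27 ± 0.16 from normoxia (adjusted p = 6.59e-10). DYNLT1, a dynein light chain, read 9.13, 8.98 and 8.77 in normoxia, 8.88, 8.78 and 8.49 in hypoxic vehicle and 6.65, 6.80 and 6.63 with BB2-162, and changed by -2.26 ± 0.14. The copper carrier CP changed by -2.17, SOS1, the exchange factor that activates RAS, by -2.07 and APPBP2 by -1.99.

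Set against the other compounds at the same dose and time, BB2-162 differed from BB2-125 in 4182 genes (26.1%) and from BB2-282 in 5734 (35.8%), with p-values adjusted over all genes in each of these 2 comparisons. Without BB2-162 replicate 3 the count against BB2-125 was 2645. LOX with BB2-162 was -3.82 ± 0.16 from BB2-282 (adjusted p = 2.31e-11) and -0.36 ± 0.16 from BB2-125 (95% interval -0.68 to -0.03, adjusted p = 0.0965), the latter being called when either hypoxic vehicle replicate 2 or 3 was left out and under quantile normalization (-0.44). EGFR was -3.50 ± 0.17 from BB2-282 and -0.81 ± 0.17 from BB2-125, both called. EGLN3 was -1.28 ± 0.12 from BB2-282 (adjusted p = 2.32e-07), and its difference from BB2-125 was -0.25 (95% interval -0.50 to 0.01), called under array weights (-0.34, adjusted p = 0.0277). VEGFA and CXCR4 were higher with BB2-162 than with BB2-125, by 0.82 ± 0.11 and 1.09 ± 0.13, while against BB2-282 their differences were -0.19 (-0.42 to 0.04) and -0.07 (-0.35 to 0.21). HSPA6 and NR4A2 were higher with BB2-162 than with either compound, by 1.07 and 2.08 over BB2-125 and by 3.08 and 3.51 over BB2-282.

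Markers of the labelled cell line were present. None of 11 epithelial carcinoma markers of A549 was dim in either group, and 8 were lower and 1, KRT19, higher with BB2-162, where 34.4% of all genes were lower and 42.4% higher. The summed intensity of the 11 markers was 44537 to 49303 on the normoxic and 21542 to 26758 on the BB2-162 arrays. Lists of fibroblast, leukocyte and endothelial markers had 3 of 4, 3 of 4 and 5 of 6 tested members called higher, with medians of 0.31, 0.43 and 0.39, and summed intensities of 433 to 459 against 486 to 560, 215 to 237 against 299 to 308, and 293.5 to 311 against 360.4 to 464. DCN, LUM and PTPRC, which are defining markers of the fibroblast and leukocyte lists, were too dim to be tested. Other members were not dim: COL1A1 had a mean of 7.67 in normoxia and 7.85 with BB2-162, COL1A2 of 6.35 and 6.63, and CLDN5 of 7.19 and 7.79, whereas the epithelial EPCAM had 6.73 and 5.53. After cyclic loess normalization 0, 1 and 1 of these were called higher. The part of these markers, and of the signal-dependent shift, in the other results was not tested. Housekeeping genes were mostly lower, 8 of 12 with a median of -0.61 and 1, B2M, higher, a call lost in the fit of the groups alone, under median centring or cyclic loess, and without normoxic replicate 2 or 3 or BB2-162 replicate 2, and GAPDH changed by -0.02 (95% interval -0.22 to 0.17).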

How the data were processed

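Values are linear intensity of Affymetrix whole-transcript probe sets, as deposited by the authors. RMA made them, per the submitters' processing notes, and its software, version and annotation are not given in the sources used here. Of 28869 probe sets, 19310 had 1 gene symbol and were named, giving 18377 genes. Of a gene's several probe sets (685 genes), the one with the highest mean was kept. Intensities were turned into log2, and 2372 genes not above the array's 25th percentile on at least 3 arrays were left out. In limma 3.58.1 (R 4.3.3), 1 linear model was fitted to all 15 arrays with moderated tests and Benjamini-Hochberg adjustment, and it was checked on simulated data. Array number limits the precision (median standard error 0.12).

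Named genes were the 10 largest non-overlapping rises and falls, 6 beyond and 6 at the normoxic level in each direction, 5 each way among genes not called for hypoxia, up to 4 per list with the lowest p, and 13 genes throughout. Other list members named were chosen after their values were seen. Members and lists were chosen with earlier results of these data known. Where a group mean lay at or below the mean 25th percentile of its arrays, a bound was counted from that level, an addition made after seeing the data. Alternatives were other scalings, filters, weights, blocks and left-out arrays.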

Additional observations from a re-analysis of the deposited data

How the results depend on the processing

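None of the called genes named by the stated rule reversed direction under the alternatives run. For named genes called neither in the main fit nor under an alternative, the size of the shift was compared and the direction was not. Of the 12296 genes called, 9516 kept their call and direction under cyclic loess, and the others were not tabulated by direction. Cyclic loess, added after the data were seen, gave 4042 genes higher in place of 6785. It called fewer genes raised by hypoxia, with 2303 on the same side, 595 at the level, 59 undetermined and 134 beyond. The main fit gave 3685, 591, 70 and 162. Lowered genes on the same side were 4918 in place of 4247. Cyclic loess moved the median change from 0.14 to -0.05, median centring moved it to 0.03, and the share of higher calls went from 55.2% to 39.3% and 47.3%. Median centring gave 32 genes lowered by hypoxia and above normoxia, and 229 away from normoxia below it. Array weights, which gave BB2-162 replicate 1 a weight of 0.23, left 270 genes raised by hypoxia and below normoxia. The fit of the groups alone gave 46 undetermined among the genes lowered by hypoxia and no value against the other compounds. A bound of 2-fold left 9 and 1 undetermined. Restricting to hypoxic changes of at least 2-fold gave 766, 44, 19 and 6 raised genes on the same side, at the level, undetermined and beyond, and 1886, 4, 3 and 4 lowered ones, by construction of fewer genes. Other causes were not tested.

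Leaving out 1 array at a time gave 46 to 144 undetermined among the raised and 20 to 75 among the lowered genes, 112 to 259 raised genes below normoxia, 27 to 51 lowered genes above it and 2645 to 6208 genes called against BB2-125. The counts called were 5969 to 6950 higher and 5185 to 5712 lower. The replicate block gave 6768 higher and 5490 lower. Same-numbered normoxic and BB2-162 arrays deviated together with correlations of -0.36, -0.16 and 0.10, and differently numbered ones with -0.26 to 0.36. Deviations from a mean of 3 arrays must balance out, so these values cannot tell whether the numbers mark a shared plating or day. SLC2A1 against BB2-125 (0.30) lost its call without any 1 of several arrays. Small changes in dim genes are limited by signal over background and by the number of arrays.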

Other observations

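Small noncoding RNAs and ribosomal genes were further groups above normoxia with BB2-162. Over all genes 42.4% were higher and 34.4% lower. Of 138 small nucleolar RNAs 128 were called higher and 0 lower, with a median change of 1.14 against 1.03 in hypoxic vehicle. Of 88 microRNA precursors 74 were higher and 0 lower, with a median of 0.53 against 0.29 in hypoxic vehicle. Cytosolic ribosomal protein genes were higher in 17 of 23 cases and lower in 1, RPL5 (-0.21), with a median of 0.33 against 0.34 in hypoxic vehicle. The call of RPL5 was lost in the fit of the groups alone, with the mean of probe sets, and without normoxic replicate 1 or 3 or BB2-162 replicate 2 or 3. RPL32 read 8.42, 8.02 and 8.09 in normoxia and 9.44, 9.44 and 9.08 with BB2-162, and RPL7A read 10.72, 10.82 and 10.32 and 11.59, 11.69 and 11.61. Under median centring or quantile normalization 11 of these 23 were higher. Genes of ribosome biogenesis went down instead, with 17 of 30 lower and 5 higher and a median of -0.36, led by POLR1A, the largest subunit of RNA polymerase I (-2.35), and UTP20 (-2.15). Hypoxic vehicle had 22 of the 30 lower and 5 higher, with a median of -0.49.

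Respiratory chain genes were lower in 21 of 29 cases and higher in 2, with a median of -0.48, where 34.4% of all genes were lower and 42.4% higher. Hypoxic vehicle had 16 of them lower and 2 higher, with a median of -0.30. SDHC, a subunit of complex II, read 11.57, 11.33 and 11.43 in normoxia, 9.78, 9.88 and 9.55 in hypoxic vehicle and 9.18, 9.03 and 8.70 with BB2-162. NDUFS1, of complex I, changed by -2.09, while UQCRB, of complex III, rose by 1.19. Histone genes of the replication-dependent clusters were lower in 16 of 25 cases and higher in 1, against 19 lower and 1 higher in hypoxic vehicle. H2BC14 stood 1.79 above hypoxic vehicle while remaining below normoxia (-2.77). Interferon-stimulated genes were lower in 12 of 21 cases and higher in 5, with DTX3L at -2.60 and IRF1 at 1.62. Their median was -0.47 against -0.43 in hypoxic vehicle, where 11 were lower and 5 higher. Of 9 genes of the aryl hydrocarbon receptor list 6 were lower and 3 higher, against 6 and 2 in hypoxic vehicle, CYP1B1 changing by -2.23 and TIPARP by 2.28. Alveolar and lung lineage genes were higher in 9 of 17 cases and lower in 4, with a median of 0.31, where 42.4% of all genes were higher and 34.4% lower, and 3 were higher after cyclic loess. ABCA3, the lipid transporter of surfactant bodies, fell from 8.5, 8.64 and 8.73 in normoxia to 7.10, 7.15 and 7.06, and GATA6 rose by 1.03.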
